A study of Mus musculus with 1183 samples.

Results

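The cells described here are those that the labels call B cells, split by whether they were in the cell division cycle. A cell was counted as cycling when at least 4 of 10 cycle genes (Ccna2, Rrm2, Tyms, Nusap1, Cenpf, Ube2c, Birc5, Cdk1, Top2a and Mki67) each had at least 5 raw reads, and as non-cycling when at most 1 of them did. Of 1183 immune cells in the data, 65 carried the label B cell, 39 of a female and 26 of a male. The rule gave 22 cycling cells, 14 from the female and 8 from the male, and 40 non-cycling cells, 22 from the female and 18 from the male, while 3 female cells with 2 or 3 of the genes were left out. Cells came from the distal lung of 1 mouse of each sex at postnatal day 7, both kept in hyperoxia, a raised oxygen level that disturbs the growth of the newborn lung. All 65 had been sorted into wells by CD45, which marks blood-derived cells, and each well gave 1 library made with the transposase Tn5. Strain and genotype are not given in the sources used here, animals in normal oxygen are not analysed here, and effects of oxygen or sex were not estimated. The animal is the replicate, so each comparison rests on 2 animals, whose cells were summed into 4 libraries: female cycling, female non-cycling, male cycling and male non-cycling.

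B cells divide at separate points of their life. Large pre-B cells, which have a rearranged heavy chain but no light chain yet, show that heavy chain on the surface with a surrogate light chain made of VpreB and lambda5 (the product of Igll1), and they divide in a burst before they stop and rearrange a light chain. Light chain bearing B cells mostly rest, held in quiescence by factors such as Klf2, until antigen or other signals make them grow and divide. In the mouse, B cell production moves from the fetal liver to the bone marrow around birth, and young animals carry many newly formed B cells.

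The labels were checked against marker genes. Cd79a, a signalling chain of the B cell receptor, stood at 2330 CPM (reads scaled to the total of the library) in the female cycling library, 5362 in the female non-cycling, 4002 in the male cycling and 5291 in the male non-cycling one, against at most 24.4 CPM in any other labelled subtype of the female and 41.3 CPM in any of the male. The label was not borne out in 5 cells, 3 cycling and 2 non-cycling, which had 0 reads of Cd79a, Ms4a1, Ighd, Igkc and Cd74 and carried the T cell receptor genes Cd3e, Cd3d and Cd3g. Cd3g reached 1054 to 1744 CPM in the 3 cycling ones and 859 to 1284 CPM in the 2 others, all 5 held 554 to 1190 CPM of the heavy chain gene Ighm, and all 3 cycling ones passed all 10 genes of the rule. A further 2 cycling and 13 non-cycling cells had Cd79a together with at least 2 markers of another type, 7 of the 13 with macrophage markers and 3 with T cell markers. Summed over the 5 macrophage markers, the libraries held 33.7, 4138, 227.9 and 3523 CPM in the order given above, and neutrophil markers held 4114 CPM in the male non-cycling library against at most 65.9 CPM in the others. The gene lists were therefore also counted without these cells.

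Depth also differed with class. A cell had 88746 to 3876133 reads (median 1290060), with class medians of 1728823 cycling and 1044046.5 non-cycling reads in the female and 1785393 and 1030983.5 in the male. The summed libraries held 24995133, 24269028, 14076730 and 18253445 reads, and the largest share from 1 cell was 15.5%. Cells were also thinned to 100000 reads, which left out 1 male non-cycling cell with 88746 reads. The median number of genes with a read was then 4008.5 in female and 4014.5 in male cycling cells, against 2679 and 2456 in non-cycling cells. B cells of plate 1 of the female came from sequencing run DC28 and all others from run DC35, so results are also given for run DC35 alone.

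Cycling cells made up 35.9% of the B cells of the female (95% Clopper-Pearson interval 21.2 to 52.8) and 30.8% in the male (14.3 to 51.8). These shares were close after thinning, at 33.3% of 39 and 28% of 25 cells, and the intervals, which cover counting error only, overlap almost wholly. By plate the share was 58.3% of 12 cells and 25.9% of 27 cells in the female, and 26.7% of 15 cells and 36.4% of 11 cells in the male. The high female value therefore belonged to plate 1, and run DC35 alone gave 25.9% and 30.8%. Without the cells that carried markers of another type, an alternative chosen after seeing the data, the shares were 39.3% and 37.5%.

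Gene starts are shown first because the results turn on 2 surrogate light chain genes and on the cycle genes that chose the cells. Each is the stretch of 250 bases before the annotated start in RefSeq on the mouse build GRCm38.p6, 5' to 3' on the gene's strand. Capitals in Igll1 and Vpreb1 mark E boxes, CANNTG, the letters that E proteins such as E2A recognise in early B cells.

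Igll1 (chr16:16863986-16864235, minus strand): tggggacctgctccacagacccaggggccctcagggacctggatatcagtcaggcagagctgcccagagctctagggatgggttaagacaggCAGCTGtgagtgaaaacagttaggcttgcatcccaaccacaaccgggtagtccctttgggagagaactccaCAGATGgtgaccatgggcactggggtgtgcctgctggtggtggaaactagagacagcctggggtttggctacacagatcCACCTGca
Vpreb1 (chr16:16869256-16869505, minus strand): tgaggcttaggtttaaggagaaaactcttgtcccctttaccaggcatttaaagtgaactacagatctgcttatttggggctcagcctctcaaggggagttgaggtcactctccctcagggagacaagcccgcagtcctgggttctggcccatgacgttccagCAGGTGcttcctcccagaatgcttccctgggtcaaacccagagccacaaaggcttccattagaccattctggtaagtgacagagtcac

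The Igll1 window held 3 E boxes and the Vpreb1 window 1, but 66.2% of all 32851 windows of this length hold at least 1. In the windows of Cdk1 and Ube2c, capitals mark the cell cycle homology region (CHR), TTTGAA, and the CCAAT box, the letters CCAAT, each in either orientation, which lie in many genes of late cycle.

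Cdk1 (chr10:69352913-69353162, minus strand): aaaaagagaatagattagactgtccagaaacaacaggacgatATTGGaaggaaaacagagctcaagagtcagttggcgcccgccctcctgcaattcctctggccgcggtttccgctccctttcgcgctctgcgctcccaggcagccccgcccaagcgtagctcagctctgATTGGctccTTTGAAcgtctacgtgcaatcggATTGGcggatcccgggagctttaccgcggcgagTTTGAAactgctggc
Ube2c (chr2:164769679-164769928, plus strand): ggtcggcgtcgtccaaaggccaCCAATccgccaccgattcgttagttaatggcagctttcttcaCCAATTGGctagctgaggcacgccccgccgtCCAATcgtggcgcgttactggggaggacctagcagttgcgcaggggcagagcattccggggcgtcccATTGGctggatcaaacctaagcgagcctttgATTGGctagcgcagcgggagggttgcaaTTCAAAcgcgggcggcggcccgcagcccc

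Cdk1 held 2 CHR and 3 CCAAT matches, and Ube2c 1 and 6, of which 1 overlapping pair forms the run CCAATTGG. Of the 10 rule genes 9 matched a window; 4 of the 9 held a CHR and 6 a CCAAT box, against 15.99% and 33.9% of all windows. Of 26 genes of the G2 and mitosis list 6 held a CHR and 21 a CCAAT box, and of 7 MHC class II genes 0 and 7. Letters recognised by EBF1, searched as TCCC and GGGA with any 2 bases between, were in neither the Igll1 nor the Vpreb1 window and in 0.779% of all windows. A match describes the letters and is not a measured binding site.

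The 10 rule genes split the cells by choice, so their values are a description without a test. Ube2c, which tags cyclins for destruction in mitosis, stood at 871 CPM in the female cycling and 998 CPM in the male cycling library and at 0 in both non-cycling ones. Rrm2, a subunit of the enzyme that makes deoxynucleotides, stood at 1098, 0, 466 and 4.71 CPM in the order female cycling, female non-cycling, male cycling and male non-cycling, which is the order used from here on. The rule keeps both genes low in the non-cycling class, and 1 of the 3 cells left out held 842 CPM of Rrm2. The genes act at different ends of the cycle, and 12 of 22 cycling cells had at least 5 reads of both. Mki67, which coats mitotic chromosomes, stood at 757, 19.1, 761 and 0 CPM, and 2 of 22 female non-cycling cells had 5 reads of it. Top2a, which untangles DNA, stood at 1203, 1.11, 1511 and 22.4 CPM and was present in all 22 cycling cells and in 4 of 40 non-cycling ones. Cdk1, the kinase that starts mitosis, stood at 360.6, 0.0412, 501 and 0 CPM. Tyms, which makes thymidylate, was the least even of the 10 between the animals, with 597 CPM in female and 241.5 CPM in male cycling cells, and was present in 14 of 14 and 5 of 8 cells. All 10 genes passed in 10 of the 22 cycling cells, whereas 30 of the 40 non-cycling cells had none and 10 had 1. Just inside the rule were 1 cell with 4 genes and 5 cells with 5, and just outside it 2 cells with 2 genes and 1 cell with 3.

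Lists of other cycle genes describe the same split and are also given without a test. All 30 genes of DNA replication were higher in cycling cells in both animals (median log2 difference 3.32), as were 28 of 30 genes of G2 and mitosis (6.49) and all 17 genes of chromatin and tubulin (3.37), against 29% of all 10413 other genes fitted that were higher in both animals and a median of -0.07. Pcna, the clamp that holds DNA polymerase, stood at 577, 76.8, 459 and 99.6 CPM, and Uhrf1, which carries DNA methylation to new strands, at 449, 18.2, 418 and 6.08 CPM. Ccnb2, a mitotic cyclin, stood at 596, 9.35, 557 and 0 CPM, and Aurkb, a kinase that checks spindle attachment, at 427, 0.0412, 328.9 and 4.60 CPM. Tubb5, a tubulin, was present in non-cycling cells too, at a lower level, with 6044, 606, 8574 and 1270 CPM. Among genes of recombination and mutation repair, 10 of 13 were higher in both animals.

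Single cycling cells varied widely within these lists. The summed level of the replication list ran from 1327 to 16624 CPM over the 22 cycling cells (median 7315) and that of the mitosis list from 546 to 17360 CPM (median 4152). In the 40 non-cycling cells the lists ran from 0 to 9263 CPM (median 519) and from 0 to 2433 CPM (median 337.8). The ranges overlapped: 1 male non-cycling cell with none of the 10 rule genes had 9263 CPM of the replication list. The 3 cycling cells with T cell markers held 5296 to 9547 CPM of the mitosis list, the 4 pre-B cells described next 785 to 17360 CPM and the 13 cells with a light chain and no markers of another type 546 to 11046 CPM. These ranges overlapped, and the highest value was that of a pre-B cell.

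**Figure D1:**
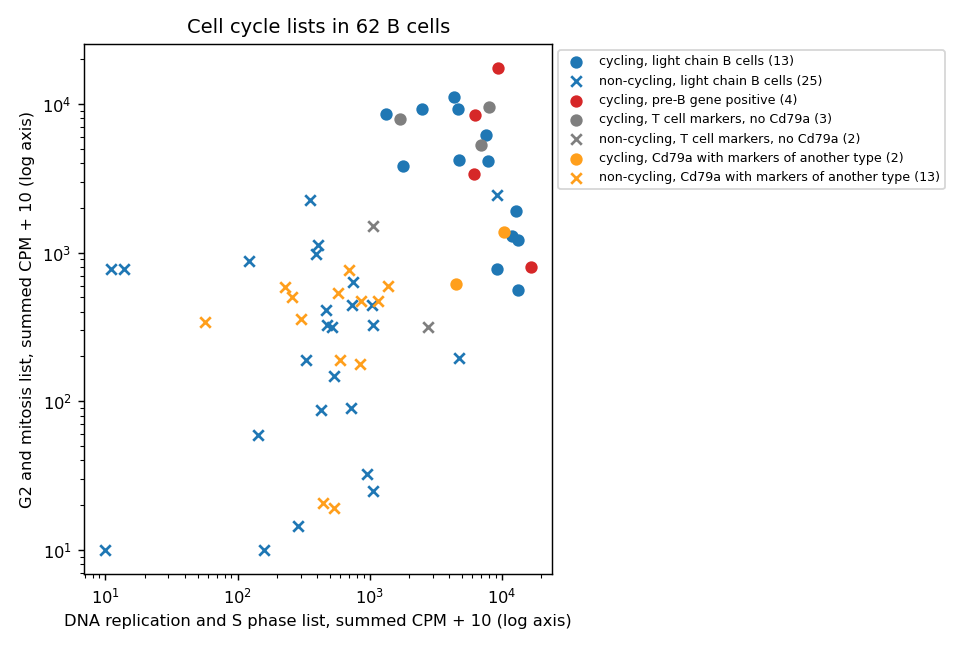
Each point is 1 of 62 cells labelled B cell. The x axis gives the summed CPM of 30 replication genes and the y axis that of 30 mitosis genes. Both are log axes after adding 10 CPM. Circles are cycling and crosses non-cycling cells, and colours give the cell's marker state. Cycling cells spread along both axes (546 to 17360 CPM of the mitosis list), and 1 non-cycling cell reached 9263 CPM of the replication list.

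The plainest difference in B cell stage lay in 4 cycling cells, 2 of each animal, that carried surrogate light chain genes. They were 18.2% of the 22 cycling cells (5.19 to 40.3), and 0 of 40 non-cycling cells was of this kind, which allows a share of up to 7.5%. A cell was counted here when 2 or more of Rag1, Vpreb1, Vpreb2 and Igll1 had 5 reads, so the values of these genes in the 4 cells are a description. They are called pre-B cells here for these genes. The genes come from a list of pro-B and pre-B genes, so the name does not separate these stages. A heavy chain variable (V) gene had at least 5 reads in 1 of the 4, so a rearranged heavy chain was not shown in the others. Igll1, which encodes lambda5, stood at 4532 and 4340 CPM in the female cells and at 5600 and 4498 CPM in the male cells. Vpreb1, its partner, stood at 1741, 2244, 887 and 404 CPM in the same order, and Vpreb2 at 76.9, 242.6, 70.2 and 230.8 CPM. No other cell labelled B cell had 5 reads of Igll1 or Vpreb1 in these 4 libraries.

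Apart from Rag1, the genes given next had no part in choosing the 4 cells. Cd79a was present in all, at 3004, 3679, 2744 and 1513 CPM, and so was the heavy chain gene Ighm, at 8004, 2881, 3313 and 776 CPM. The light chain genes Igkc, Iglc1, Iglc2 and Iglc3 had 0 reads in all 4, and so had Cd74, H2-Aa and H2-Eb1 of the machinery that presents antigen on MHC class II. H2-Ab1 of the same list did not follow, with 72.5 and 367.3 CPM in the female cells and 269.7 and 0 CPM in the male ones. Rag1, which cuts immunoglobulin genes, stood at 101.1 CPM in 1 female and 141.5 CPM in 1 male cell and was 0 in the other of each pair. Of the 4 cells the same 2 held Il7r, the interleukin 7 receptor, at 900 and 381.1 CPM. Neither gene was confined to pre-B cells. Rag1 stood at 180.5 CPM in 1 female non-cycling cell with a light chain. Il7r stood at 286.2 CPM in another such cell and at up to 1042 CPM in the cells with T cell markers and no Cd79a. Ccnd3, the D cyclin that pre-B cells are known to need for division, stood at 2321, 3494, 1971 and 1400 CPM, and Cd24a, a surface protein high in young B cells, at 4334, 856, 2367 and 2710 CPM. Ms4a1 (CD20), which comes up in later B cells, stood at 0 to 0.6 CPM, and Klf2 at 3.1 CPM in 1 of the 4 and 0 in the others. All 4 had reads of the heavy chain constant gene and none of a light chain constant gene. The lowest Ighm value, 776 CPM, lay within the 554 to 1190 CPM of the cells with T cell markers. The 4 cells passed 10, 6, 10 and 7 of the rule's genes. Both female cells came from plate 1, run DC28, and both male cells from plate 1, run DC35.

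**Figure D2:**
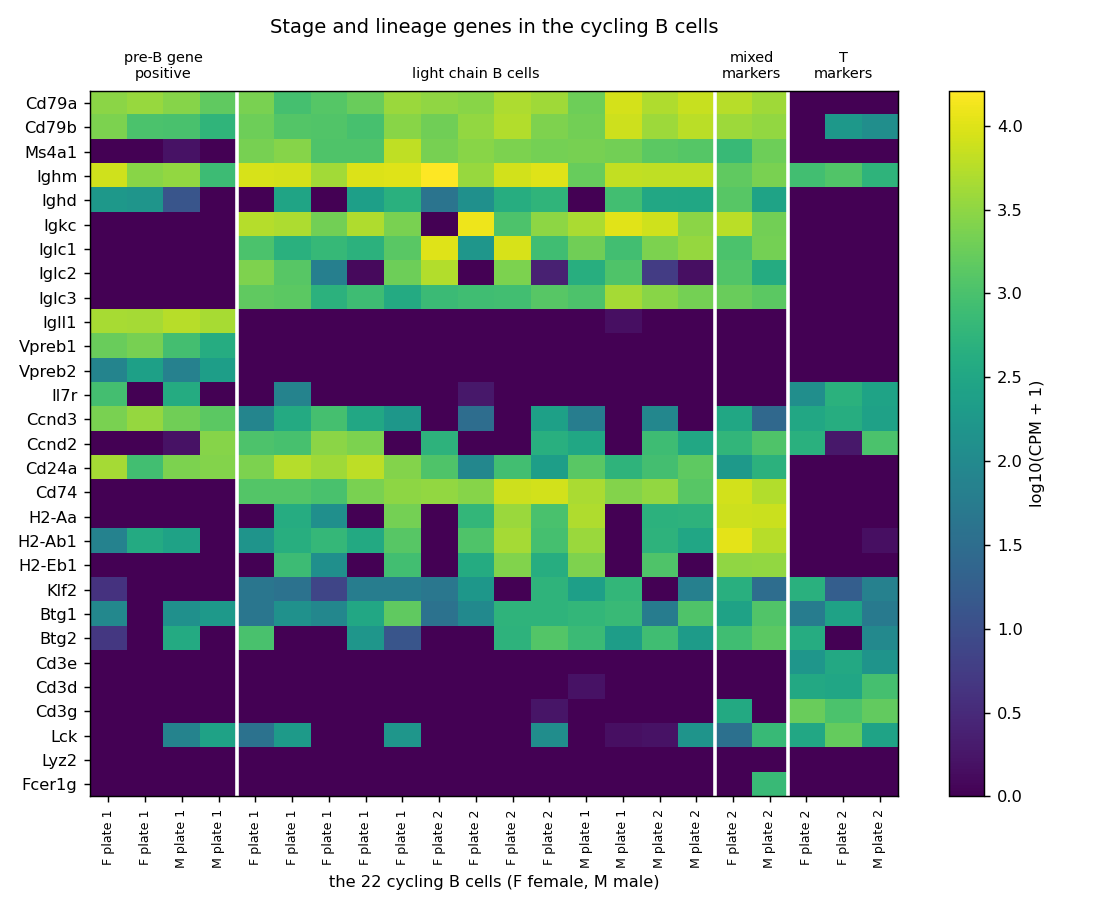
Rows are 29 stage and marker genes and columns the 22 cycling cells, grouped by marker state and labelled F or M for the animal; colour gives log10 of CPM plus 1. The 4 pre-B cells hold Igll1 and Vpreb1 and lack Cd74 and Igkc, and the 3 cells with T cell markers lack Cd79a.

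In the summed libraries Igll1 stood at 754, 0, 1168 and 0 CPM and rose in cycling cells (adjusted p = 0.0132 by edgeR's quasi-likelihood test with Benjamini-Hochberg adjustment), at least 6102-fold in the female and at least 7107-fold in the male against a floor of 3 reads per library. Vpreb1 stood at 296.6, 0, 153.8 and 0 CPM and rose at least 2399-fold and 936-fold (adjusted p = 0.0241). These values rest on few cells: 1 cell gave 93.2% of the Igll1 reads of the female and 1 gave 61.1% of those of the male. With the animal as a block, the paired fit, Igll1 passed at an adjusted p of 0.0340 and Vpreb1 did not, at 0.0718. Without the male cycling library neither passed, at 0.0915 and 0.135, and without the female one Igll1 did, at 0.0261, and Vpreb1 did not, at 0.144. Without the cells carrying markers of another type the values were 0.0252 and 0.064, and in run DC35 alone the female cycling cells had 0 reads of both. Vpreb2, at 14.8, 0.0412, 32.3 and 0 CPM, did not pass (adjusted p = 0.323). Of 17 measured pro-B and pre-B genes 14 were fitted, and 9 were higher in cycling cells in both animals (median log2 difference 1.73), 2 of them called. Of all genes fitted 29% were higher in both animals and 0.163% were called higher. Without the 4 cells and the cells of other types, 7 could be fitted, with 1 higher and 2 lower in both animals (median 0.60), against 29.2% and 23.8% of all genes. That alternative was chosen after seeing the data. Genes of this same list picked the 4 cells, so a fall in these counts was built in.

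Most cycling cells were of a later stage. A light chain (at least 5 reads of Igkc, Iglc1, Iglc2 or Iglc3) was present in 15 of 22 cycling and 38 of 40 non-cycling cells, and 13 cycling cells (9 female, 4 male) and 25 non-cycling cells (15 and 10) had a light chain, no pre-B set and no markers of another type. They are called light chain cells here. No cell of either class had 2 genes of plasma cells (Sdc1, Jchain, Prdm1 and Tnfrsf17), which allows up to 13.6% of cycling and 7.5% of non-cycling cells.

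Different variable (V) genes mark cells with different receptors. A shared V gene or pair does not show a shared receptor, because many clones can use the same V gene. All 13 cycling light chain cells had a light chain V gene with at least 5 reads, of 9 different kinds, and 11 had a heavy chain V gene, of 8 kinds. Over all cycling cells 12 had both, and the 12 pairs of genes were all different. Among non-cycling cells 27 had both, with 26 different pairs, and 1 pair occurred in 2 cells. Single genes recurred: Igkv8-30 led in 3 of the cycling light chain cells and Iglv1 in 5 of the 25 non-cycling ones. Of the 4 pre-B cells 1 had a heavy chain V gene, Ighv1-74, with 42.4% of its heavy chain V reads; the others had at most 3 reads of one, and none of the 4 had a light chain V gene. V genes are near-identical copies, so reads may be split among them and each identity is uncertain to that extent.

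Among the 10413 other genes fitted, 23 passed an adjusted p of 0.05 (0.221%), 17 higher (0.163%) and 6 lower (0.0576%) in cycling cells. With the animal as a block 7 passed, 4 higher and 3 lower, and 6 of these were among the 23. At an unadjusted p under 0.05 there were 1193 genes. In data simulated with the spread of these libraries, 4-fold changes were called for 1 of 50 genes, 8-fold for 10 of 50 and 32-fold for 46 of 50, so the test reached mainly very large differences. The common biological coefficient of variation was 1.09, which is the fitted spread between libraries of a class.

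Of the 17 that rose, 6 belonged to the cycle lists above (Cdca8, Tuba1b, Cenpe, Plk1, Tpx2 and Ckap2l). Another 8 are genes of chromosome copying and separation, the process that chose the cells, so their calls describe the split. Spc24 and Spc25, both of the kinetochore complex that grips microtubules, stood at 358.7, 0.247, 623 and 0.877 CPM and at 351.4, 0.0824, 117.1 and 0.110 CPM. Esco2, which locks sister chromatids together during copying, stood at 221.8, 0.124, 152.2 and 0 CPM, and Cdca5, which protects that bond, at 128.3, 0, 134.1 and 0 CPM. Clspn, which guards copying forks, stood at 120, 0.0412, 152.1 and 0.0548 CPM. Kif15, a spindle motor, Neil3, a DNA repair enzyme, and Cdca3, a mitotic entry factor, completed the group, with Cdca3 at 425, 10.5, 493 and 12.7 CPM (log2 difference 5.27, SE 0.53, adjusted p = 0.0241). None of the 8 exceeded 12.7 CPM in a non-cycling library. With the animal as a block Spc24 alone of the 8 kept its call (adjusted p = 0.0340), and the other 7 lay between 0.0504 (Cdca3, Kif15 and Spc25) and 0.130 (Cdca5). Without the cells carrying markers of another type Cdca3 alone kept it (0.0328), with the other 7 between 0.0734 (Spc24) and 0.241. Of the 6 in the cycle lists Cdca8 alone passed with the block and also without those cells.

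The last called genes were Igll1, Vpreb1 and Igkv8-30, a kappa V gene, among those that rose and all 6 that fell. The latter missed the limits on level and share of cells set for naming genes and are named after their values were seen. Igkv8-30 stood at 452, 0, 1247 and 0 CPM and came from 2 of 14 and 1 of 8 cycling cells (adjusted p = 0.0241), with 91.5% of the female reads in 1 cell. A kappa V gene of the Igkv17 family stood at 0, 497, 0 and 624 CPM and had 5 reads in 3 of 22 and 3 of 18 non-cycling cells (adjusted p = 0.0132), with 99.7% of the male reads in 1 cell. With the animal as a block both V genes and Lyz2 passed (0.0340 to 0.0399), and the other 4 that fell did not (0.0718 to 0.120). The other 5 that fell are genes of myeloid cells: Lyz2, the macrophage lysozyme, stood at 0, 2511, 0 and 2231 CPM, in 3 of 22 and 2 of 18 non-cycling cells, and Clec4a3, a lectin of monocytes and macrophages, at 0, 196.9, 0 and 113.6 CPM. Hp, Cd300c2 and Pla2g7 were likewise at 0 in both cycling libraries and present in both non-cycling ones. These moved with the macrophage markers given above, and without the cells carrying markers of another type none of the 5 was left to test. Lyz2 is itself 1 of the macrophage markers that picked those cells, so for Lyz2 both results were fixed in advance. The fit without those cells called 6 genes, 5 higher and 1 lower, and 5 of them were among the 23. In it 35.3% of all genes were higher and 20.9% lower in cycling cells in both animals.

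No gene of the B cell identity, naive, receptor signalling, MHC class II or quiescence lists passed the test. Most lay lower in cycling cells in both animals as shares of a library's reads, and messages per cell were not measured. The chromatin and tubulin list alone held 17540, 2515, 21390 and 3126 CPM, and its part in these differences was not tested. Beside the counts that follow, 30.2% of all genes fitted were lower in both animals, and for 21.8% both cycling libraries lay below both non-cycling ones. Of 17 pan B cell genes 14 were lower in both animals (median log2 difference -0.76), and of 18 naive and follicular genes 16 were (-1.45). So were all 6 immunoglobulin constant genes measured (-0.85), 11 of 18 genes of receptor signalling (-0.90), 9 of 10 genes of MHC class II (-1.23), 10 of 16 quiescence genes (-1.56) and 11 of 15 homing genes (-0.74). In none of these lists was a gene higher in both animals. Without cells carrying markers of another type, where 20.9% of all genes were lower in both animals, the counts in the same order were 11 of 17, 14 of 18, 6 of 6, 8 of 17, 10 of 10, 7 of 16 and 8 of 14, and up to 3 genes of a list were higher in both. Without pre-B cells too, where 23.8% were lower, they were 10 of 17, 12 of 18, 4 of 6, 7 of 17, 8 of 10, 9 of 15 and 8 of 14. In run DC35 alone, where 30.8% of all genes were lower in both animals, the counts were 14, 14, 5, 10, 5, 11 and 9 in the same order, of which 5 of 10 for MHC class II lay nearest to the background. Setting genes with 0 reads in a class to their bound left every median as given.

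**Figure D3:**
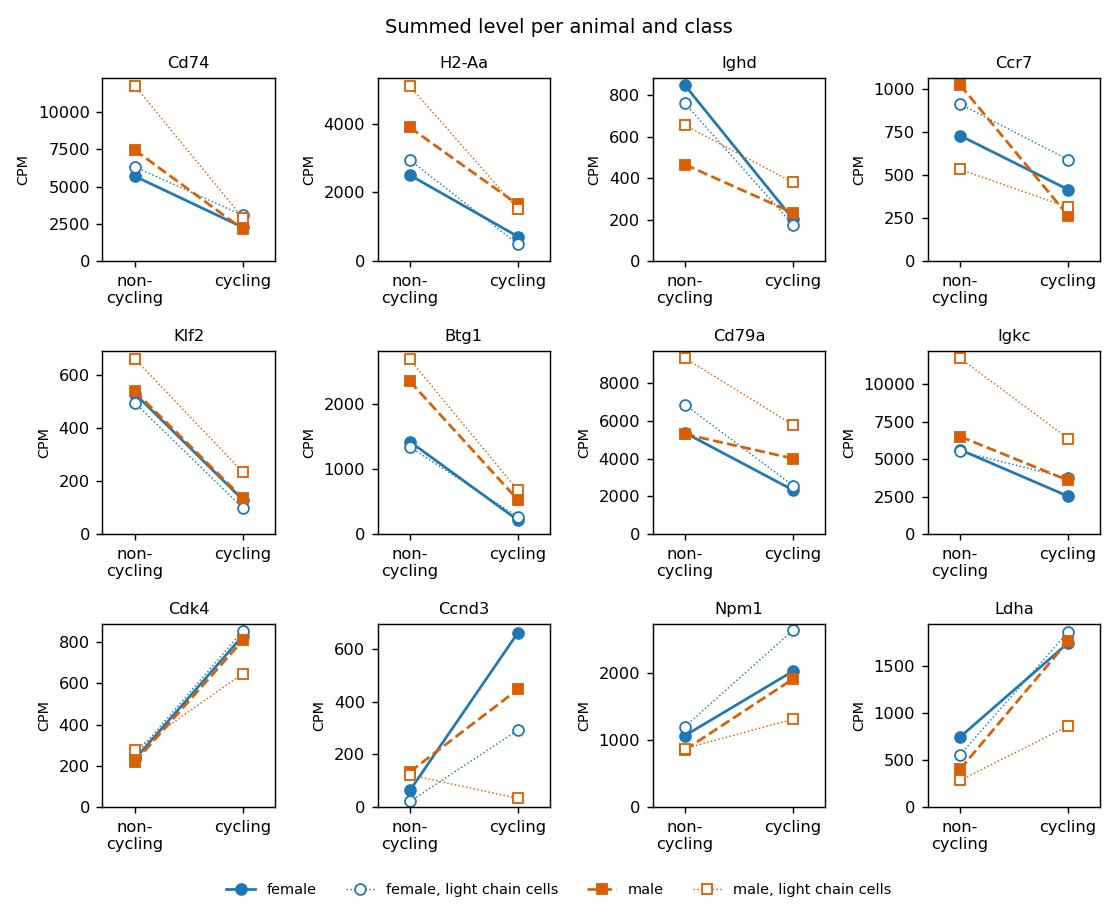
Each panel gives 1 gene's CPM in the 4 libraries, with filled points for all cells of a class and open points for light chain cells only; lines join the libraries of 1 animal. Cd74 went from 5695 to 2266 CPM in the female and from 7452 to 2142 CPM in the male between non-cycling and cycling cells.

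MHC class II shows antigen to T cells. Cd74, the chain that guides class II molecules to the compartment where they load antigen, stood at 2266, 5695, 2142 and 7452 CPM (log2 difference -1.62, SE 0.34, adjusted p = 0.194). The class II chains H2-Aa and H2-Eb1 lay below in both animals as well, at 713, 2499, 1645 and 3887 CPM (adjusted p = 0.361) and at 350.9, 1157, 833 and 2875 CPM (0.360). Both cycling libraries lay below both non-cycling ones for 9 of the 10 genes. Part of the cycling cells lacked Cd74 wholly: it had 5 reads in 10 of 14 and 5 of 8 cycling cells, the others being the 4 pre-B cells and the 3 cells with T cell markers, and in 22 of 22 and 16 of 18 non-cycling ones. Within light chain cells Cd74 ran from 997 to 8420 CPM (median 2743) in 13 cycling and from 851 to 16831 CPM (median 6402) in 25 non-cycling cells, so the ranges overlapped and the pooled medians differed. The difference was uneven between plates: the medians were 1228 against 5056 CPM in plate 1 and 5524 against 6185 CPM in plate 2 of the female, and 3696 against 4151 CPM and 2326 against 11681 CPM in the male. H2-Aa had the higher median in cycling cells in plate 2 of the female, at 803 against 606 CPM, and in plate 1 of the male, at 2585 against 83.2 CPM, with 2 to 12 cells a group. With other-type and pre-B cells left out, the log2 difference of Cd74 was -1.75 and the list's median -1.85, with 8 of 10 genes lower in both animals, against 23.8% of all genes in that fit. Run DC35 alone gave -1.19 for Cd74.

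Quiescence genes showed the same direction. Klf2, a transcription factor that keeps lymphocytes at rest, stood at 130, 532, 135.6 and 541 CPM (log2 difference -2.05, SE 0.40, adjusted p = 0.168). Btg1 and Btg2, which slow division, stood at 214.2, 1424, 527 and 2354 CPM (-2.38, adjusted p = 0.265) and at 276.4, 1141, 469 and 1177 CPM (-1.66, adjusted p = 0.288). Tsc22d3, a glucocorticoid-induced brake, stood at 100.8, 579, 86.8 and 272.8 CPM (adjusted p = 0.249). For all 4 genes both cycling libraries lay below both non-cycling ones. Within light chain cells the pattern of Klf2 was not the same in the animals or the plates. With plates pooled, its median was lower in female cycling cells, at 44.9 against 501 CPM, but not in the 4 male ones, at 153.3 against 99.9 CPM. By plate the medians were 43.8 against 34.7 CPM in plate 1 and 106.5 against 602.4 CPM in plate 2 of the female. In the male they were 427.5 against 57.9 CPM and 33.9 against 549.3 CPM. Btg1 was lower in both animals, with medians of 133.2 against 1051 CPM in the female and 659 against 1829 CPM in the male. The share of cells with 5 reads of Klf2 was 85.7% and 62.5% of cycling cells and 95.5% and 83.3% of non-cycling ones, and after thinning to 100000 reads 57.1%, 50%, 90.9% and 76.5%.

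Of the naive genes, Ighd, the delta heavy chain of mature naive cells, stood at 202.8, 848, 232.7 and 465 CPM (log2 difference -1.61, adjusted p = 0.310), Ccr7, the receptor that leads cells into lymph nodes, at 415, 729, 263.6 and 1023 CPM (-1.42, 0.323), and Foxp1 at 635, 1337, 471 and 1066 CPM (-1.16, 0.323). The 3 genes were lower in cycling cells in both animals, and 11 of the 16 naive genes lower in both animals were so again when cells of other types and pre-B cells were left out, where the list's median was -0.92. The pan B cell genes gave the following values. Cd79a (log2 difference -0.78, SE 0.39, adjusted p = 0.564) and Ms4a1 (CD20), at 1237, 2734, 1120 and 1600 CPM (-0.90, adjusted p = 0.431), were lower in both animals. Pax5, which holds B cell identity, stood at 230, 432, 143.5 and 324.2 CPM (adjusted p = 0.450). Ebf1, which starts it, had a log2 difference of -0.07 (adjusted p = 0.985); it was higher in the cycling library of the male only, and its sign turned under other settings.

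Immunoglobulin constant genes were lower in both animals, and none passed the test. Igkc, the kappa constant gene, stood at 2520, 5619, 3580 and 6503 CPM (log2 difference -1.02, adjusted p = 0.353), and Iglc2, a lambda constant gene, at 936, 2633, 250 and 3165 CPM (-2.36, adjusted p = 0.299). Ighm, the mu heavy chain, stood at 6941, 8749, 3636 and 6404 CPM (-0.56, adjusted p = 0.754). In light chain cells the medians of Ighm were 8334 CPM in cycling and 8496 CPM in non-cycling cells, with ranges of 1722 to 16146 and 1732 to 20857 CPM. Of signalling genes, Lyn, the first kinase of the receptor, was lower in both animals (-2.28, adjusted p = 0.262), and Ptpn6, the phosphatase SHP-1 that restrains it, stood at 707, 1171, 462 and 937 CPM (-0.89, adjusted p = 0.448). Of 18 activation genes 10 were lower in both animals and 1 was higher, among them the early activation marker Cd69 at 183.9, 481, 330.6 and 558 CPM (adjusted p = 0.490). The activation median was -0.93, but -0.39 without other-type cells, with 7 of 17 genes lower and 1 higher, and -0.05 without pre-B cells too, with 6 lower and 2 higher.

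Genes of growth lay on the other side. Of 18 genes of ribosome and nucleotide making 14 were higher in cycling cells in both animals and none was lower in both (median log2 difference 0.98), against 29% of all genes fitted. For the same 14 both cycling libraries lay above both non-cycling ones, which held for 21.1% of all genes. Npm1, a chaperone of ribosome assembly, stood at 2022, 1064, 1906 and 851 CPM (1.00, adjusted p = 0.326), Ncl, its nucleolar partner, at 2201, 1340, 1992 and 1034 CPM (0.79, adjusted p = 0.443), and Nop58, of the RNA-modifying core, at 400, 117.6, 393 and 115.8 CPM (1.73, adjusted p = 0.263). None passed. The count was 10 of 18 in run DC35 and 9 of 18 without other-type and pre-B cells, where 25.8% and 29.2% of all genes were higher in both.

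Energy genes were also mostly higher. Of 15 nuclear genes of respiration 12 were higher in both animals and none lower (median 0.63), such as Atp5b, of the ATP synthase, at 1948, 914, 1627 and 810 CPM (1.01, adjusted p = 0.323). That count was 11 in run DC35 and 12 without other-type and pre-B cells. Glycolysis was mixed, with 9 of 14 higher and 4 lower in both animals (median 0.81). Ldha, which turns pyruvate to lactate, stood at 1749, 747, 1769 and 404 CPM (1.59, adjusted p = 0.282), and Tpi1, a middle enzyme of the pathway, at 533, 104.4, 481 and 157.9 CPM (1.90, adjusted p = 0.256). In light chain cells Ldha had 5 reads in 13 of 13 cycling and in 15 of 25 non-cycling cells, with medians of 1403 and 283.2 CPM. For glycolysis the counts without other-type and pre-B cells were 6 higher and 3 lower.

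Regulators that act before DNA copying split in part. Cdk4, the kinase that D cyclins switch on, stood at 830, 231.7, 808 and 217.7 CPM (log2 difference 1.83, SE 0.37, adjusted p = 0.185), and had 5 reads in 13 of 14 and 7 of 8 cycling against 10 of 22 and 10 of 18 non-cycling cells. Ccnd3 stood at 661, 63, 447 and 133.5 CPM (2.43, adjusted p = 0.230), much of it in the pre-B cells; without those and other-type cells the log2 difference was 0.94 and the animals differed in direction. Cdk6, at 403, 136.5, 812 and 415 CPM (1.09, adjusted p = 0.701), had a difference of -0.46 in that fit. Ccnd2, the D cyclin of mature B cells, was close in both classes, at 870, 909, 721 and 795 CPM (-0.14, adjusted p = 0.963). Over the list of 11 fitted, 6 were higher and 2 lower in both animals (median 0.40), against 29% and 30.2% of all genes. The median turned to -0.11 without other-type cells, with 4 higher and 1 lower, and to -0.38 without pre-B cells too, with 2 higher and 2 lower.

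Cd24a stood at 2367, 673, 1198 and 484 CPM (log2 difference 1.58, adjusted p = 0.310), and in female cycling cells its level went with the plate. Female cycling light chain cells of plate 1 held 2349 to 6065 CPM of Cd24a and those of plate 2 held 86.3 to 1105 CPM, with no overlap. Female non-cycling light chain cells held 577.5 to 1590.8 CPM in plate 1, wholly below the cycling ones there, and 0 to 2253.8 CPM in plate 2. Male medians were higher in cycling cells in both plates, at 951.6 against 303.7 CPM and 1162 against 888.1 CPM. In run DC35 alone the female cycling library lay below the non-cycling one, which held 579 CPM. The plate and the run cannot be told apart in the female, and the cause of the difference between its cycling cells was not tested.

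Other stage and death lists follow, beside 29% of all genes higher and 30.2% lower in both animals. Of 7 germinal centre genes fitted 4 were higher and 2 lower in both animals, and Bcl6, their defining factor, was near absent, at 0.200, 9.02, 0.639 and 5.15 CPM. Of 10 plasma cell genes fitted 4 were higher and 3 lower, Jchain had reads only in the female non-cycling library, at 13.1 CPM, and Sdc1 only in the male cycling one, at 0.639 CPM. Of 14 genes of marginal zone and B-1 cells 3 were higher and 6 lower, and of 8 immature genes 2 and 4. Of 10 targets of p53, which halts the cycle after DNA damage, 1 was higher and 6 were lower (median -1.29), and of 8 interferon genes 0 and 3 (-0.57). Without other-type cells these were 2 and 2 of 9 p53 targets (-0.94) and 0 and 0 of 6 interferon genes (-0.82). Of 14 survival and death genes 4 were higher and 5 lower, with Mcl1, a short-lived survival protein, at 190.7, 718, 172.8 and 537 CPM (-1.82, adjusted p = 0.204) and Bid, a death effector, at 322.4, 122.5, 125.2 and 69.5 CPM (1.18, adjusted p = 0.606).

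**Figure D4:**
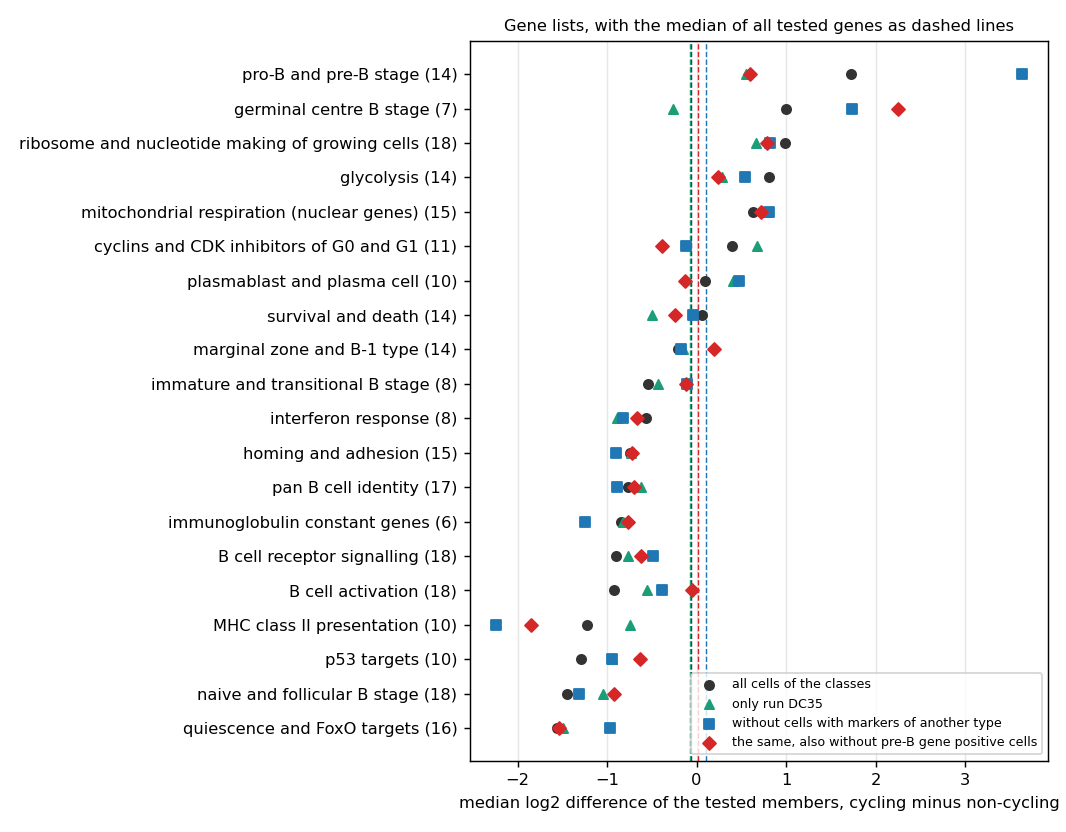
Each row is 1 of 20 gene lists; points give the median log2 difference, cycling minus non-cycling, over the members fitted (their number in parentheses) with all cells, in run DC35 only, without cells with markers of another type, and also without pre-B cells, and dashed lines give the medians of all genes. Medians for MHC class II lie at -1.23, -0.74, -2.24 and -1.85, and those for ribosome and nucleotide making at 0.98, 0.66, 0.82 and 0.79.

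The same split was made in Mac III, the largest labelled subtype, to see which differences were not shared by another cycling cell of the lung. Mac III had 66 cycling cells, 27 female and 39 male; 50 cells with 2 or 3 of the genes were left out and the others were non-cycling. The difference between the classes differed between B cells and Mac III for 61 of 12854 genes (0.475%), 16 more positive (0.124%) and 45 more negative (0.35%) in B cells. With the animal as a block 5 genes passed, and without the B cells that carried markers of another type 2 did. The 45 included the myeloid genes Lyz2, Clec4a3, Cd300c2 and Pla2g7, called lower above, and the macrophage marker Csf1r. Without those B cells none of these kept its call (Csf1r at an adjusted p of 0.790), and of the 45 Naaa alone did (0.0436). Lyz2 and Csf1r were among the markers that picked those cells. Leaving out any 1 Mac III library left 1 to 4 genes, none more positive in B cells, and leaving out a non-cycling B cell library raised the share to 1.94% (female) and 1.23% (male). Igll1 (adjusted p = 0.0245) and Vpreb1 (0.0390) were among the 61, with at most 0.033 CPM in any Mac III library. All 16 more positive genes lost their calls with the block, Igll1 at 0.117 and Vpreb1 at 0.194, and both missed it without other-type cells (0.108 and 0.138).

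Differences that did not pass between the cell types are no sign that the types act alike. For Cd74 the adjusted p of the difference between B cells and Mac III was 0.125, for Klf2 0.372, for Btg1 0.404, for Ldha 0.177 and for Npm1 0.426. Gas2l3, which links actin and microtubules in dividing cells, stood at 57.7, 0, 146.5 and 0.0548 CPM in B cells and at 120, 48.7, 76.9 and 57.5 CPM in Mac III, so the non-cycling B cells lacked a message that non-cycling Mac III cells held.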

How the data were processed

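The values are raw read counts per gene and cell, whole numbers as the authors deposited them, over 18072 genes, with no molecular identifiers named; reads copied from 1 molecule are counted separately. STAR 2.5.2b and HTSeq 0.10 are named per the submitters' processing notes, without their roles, beside a human genome build although the cells are mouse, so no coordinates were taken from it. The cells compared and the gene lists were chosen with earlier results of these data known.

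Counts were summed per animal and class, and CPM was computed from these sums. The quasi-likelihood test of edgeR 4.0.16 (R 4.3.3; TMM scaling, filterByExpr) was fitted to 10423 genes, with Benjamini-Hochberg adjustment over all of them and calls at an adjusted p under 0.05; rule genes and cycle lists are given without p. The fit was tested on simulated data. No doublet caller was run. Named genes were the rule genes, up to 6 members per list (called ones first, then by CPM), and up to 10 called genes per direction with at least 50 CPM and 5 reads in 25% of cells in the higher class of each animal and no place in a cycle list (up to 5 per direction for the comparison with Mac III). Intervals and limits for a count of 0 (3 counts) cover counting error only.

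Libraries of 1 animal share their source, so the animal pairs them. Their deviations from the class means correlated at 0.0327 over 10423 genes, the same for both pairs by construction. Alternatives were RLE scaling, DESeq2 1.42.0, no filter, the animal as a block, all subtypes but Mac I in 1 fit, and equal weight per cell. Further ones were classes from cells thinned to 100000 reads, 6 of 10 rule genes, run DC35 only, no cells with markers of another type, and each library left out. Leaving out pre-B cells too, the share of cycling cells without other-type cells, and single libraries left out of the comparison with Mac III were added after seeing the data. Dntt, Cdkn2a and 6 heavy chain constant genes were not analysed here, and some other genes are not reported here.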

Additional observations from a re-analysis of the deposited data

Results flagged for a closer look

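For 3 genes the difference between cycling and non-cycling cells differed between B cells and Mac III in the edgeR test of that difference. Gas2l3 had a log2 difference 11.23 higher in B cells (adjusted p = 0.0245), with 57.7, 0, 146.5 and 0.0548 CPM in the female cycling, female non-cycling, male cycling and male non-cycling B cell libraries and 5 reads in 10 of 22 cycling cells. Cdca5 had one 12.06 higher (adjusted p = 0.0312), at 128.3, 0, 134.1 and 0 CPM in B cells and 30.8, 2.35, 38.9 and 2.57 CPM in Mac III. Fitted values of genes with 0 reads in a class depend on the prior count and are no bound; against 3 reads, Gas2l3 was at least 466-fold higher in female cycling B cells, and Cdca5 at least 1038-fold (female) and 816-fold (male).

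Arhgef2, an activator of RhoA that binds microtubules, differed by -4.35 (log2, B cells minus Mac III, adjusted p = 0.0427). In Mac III it was close in all libraries, at 81.4 to 95.1 CPM, and in B cells it stood at 4.92 and 7.03 CPM in the cycling and at up to 135.3 CPM in the non-cycling libraries. Over the alternatives the adjusted p ran from 1.02e-08 to 0.337 for Gas2l3, from 1.1e-08 to 0.332 for Cdca5 and from 1.73e-13 to 0.41 for Arhgef2, and with the animal as a block it was 0.116, 0.204 and 0.157. None of the 3 passed without a Mac III library, whichever of the 4 was left out.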

How the results depend on the processing

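Genes called made up 0.221% of those fitted. The share was 7.7% with DESeq2 (1181 genes, 565 higher and 616 lower), 2.74% with no filter (421 genes), 0.548% with all subtypes in 1 fit (85 genes, 26 higher and 59 lower), 0.355% with equal weight per cell (37 genes) and 0.354% with 6 of 10 rule genes (36 genes). It was 0.0672% (7 genes) with the animal as a block, 0.0654% (6) without cells with markers of another type and 0.0345% (3) without pre-B cells too. Leaving out 1 library gave 0 to 1.8%: 0 genes without the male cycling one, where edgeR gave 712 at an unadjusted p under 0.05 and no other tool was run, and 7 without the female cycling one. The lone library of a class is assumed there to vary like the other class. RLE scaling, thinned classes and run DC35 stayed within 1.5 times. The difference from Mac III (0.475%) moved to 7.01% with DESeq2, 0.0389% with the block, 0.016% and 0.0081% without the cells of other types and without pre-B cells too, and 0.00712% to 1.94% with 1 library left out. Of the 17 higher calls 13 were lost with the block and of the 6 lower ones 4 were; in the difference from Mac III all 16 more positive and 42 of 45 more negative calls were lost. The block gave no call to any other gene named. The share of cycling cells was 58.3% in plate 1 of the female.

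Il7r turned to -3.61 and Cdk6 to -0.46 without other-type and pre-B cells. Ebf1 (-0.07) turned to 0.0031 with thinned classes, 0.17 with 6 of 10 genes and 0.31 without other-type cells, and ran from -0.35 to 0.31 with 1 library left out. The causes of these moves were not tested. Of the other comparisons of single genes and settings 697 kept their side and direction, 57 lost a call and 42 gained one, 19 of these with DESeq2 and 17 with no filter. Among the latter were Cd74 (adjusted p = 0.00121 and 0.000533) and Klf2 (5.96e-05 and 0.0142). The adjusted p of Igll1 ran from 1.42e-58 to 0.0915 and that of Vpreb1 from 1.03e-22 to 0.144. The median log2 difference of all genes fitted was -0.07, but -0.23 with DESeq2, -0.20 with no filter, 0.11 without other-type cells and -0.39 to 0.22 with 1 library left out. With 2 animals and a coefficient of variation near 1.09, few changes below 8-fold could be called.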
